A study of Mus musculus with 22 samples.

Results

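Dextran sulfate sodium (DSS) is a sulfated polysaccharide that injures the colonic epithelium when mice drink it, and a course of it is a standard way to induce colitis. The comparison described here set 5 colon libraries of mice given DSS against 8 colon libraries of control mice (CON), 13 of the 22 libraries of the series, chosen by their group labels and not by any measured value. All mice were wild type BALB/c animals that started at 5 weeks of age and had food and distilled water freely for 3 weeks. The DSS group (libraries 1, 2, 5, 6 and 7) drank distilled water with 5% DSS during the last week, and the CON group (libraries 1 to 8) drank distilled water alone throughout. The other 9 libraries came from mice that drank deep sea waters with DSS and were not used in any fit described here. The question was what DSS colitis changed across all genes of the colon in mice that drank plain water. Sex, the stretch of colon taken, a disease score and whether each library is a separate mouse are not given in the sources used here, so p-values measure the spread between these libraries, which may in part be technical. In what follows the values of the DSS libraries are listed in the order 1, 2, 5, 6 and 7, and those of CON as the lowest, the median and the highest of 8.

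The colon is lined by a single layer of epithelium folded into crypts. Stem cells at the crypt base, kept by Wnt signals from the surrounding stroma, divide and give rise to absorptive colonocytes and mucus-secreting goblet cells. When DSS breaks this layer, luminal bacteria reach the tissue, and epithelial and immune cells respond through receptors that feed the transcription factors NF-kappaB and STAT3. In mice the injury phase is known for loss of the stem cell programme and for the release of antimicrobial proteins, and it is followed by regeneration once DSS is withdrawn.

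The unit was FPKM, fragments scaled to transcript length and to the mapped fragments of the library, so levels of different genes are compared per length. A gene was tested when it had at least 1 FPKM in at least 4 of the 13 libraries, and 13483 genes were. Some genes were under 1 FPKM throughout 1 group and met this filter through the other group alone. Among them were S100a8, S100a9, Retnlg, Lgr5, Dkk2, Foxl1, Abcg8, Pi16, Mfap5 and Mzb1. For such genes the filter favoured the direction seen. Differences are log2 fold changes, DSS over CON, of FPKM + 1 with their standard error, from limma's moderated test, which gave every adjusted p below. This scale understates the change of genes near 1 FPKM, and for such genes the ratio of mean FPKM, or the value with a smaller pseudocount, is given too. Below, "rose" and "fell" are used of genes that passed an adjusted p under 0.05.

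Epithelial marker genes were abundant in every library, with a summed level of 3116 to 5702 FPKM in DSS and 2649 to 4372 FPKM in CON over 8 markers, and the squamous markers Krt5, Krt14 and Trp63 stayed under 1 FPKM in all 13. Of the small intestinal markers Lct and Apoa4 were under 1 FPKM in all 13, and the sum of these and of Sis and Fabp6 was 4.94 to 10.4 FPKM in DSS and 1.84 to 17.9 FPKM in CON. Some markers of other tissue layers moved with the group. The summed level of 3 adipocyte markers was 5.13 to 56.9 FPKM in DSS against 26.6 to 536 FPKM in CON. That of 3 fibroblast markers was 32.9 to 110 FPKM in DSS against 106 to 158 FPKM in CON, and that of 4 pancreatic acinar markers, of which Prss2 and Cpb1 were under 1 FPKM throughout, was 4.59 to 15.6 FPKM in DSS against 20.5 to 66.2 FPKM in CON. The libraries held 48089882 to 63193922 reads in DSS and 48872220 to 64226018 reads in CON. The share of reads that mapped was 88.9%, 88.0%, 88.5%, 85.1% and 82.3% in DSS, against 89.9% to 91.9% in CON, with no overlap between the groups (p = 0.000777 and, adjusted over 5 library measures, 0.00388, by an exact two-sided permutation test). The number of genes with 1 FPKM or more was 12757 ± 280 in DSS (SD, n = 5) and 13072 ± 129 in CON (SD, n = 8; exact permutation p = 0.0117, adjusted p = 0.0195). Because these are whole pieces of colon, fewer cells of a type and less RNA per cell cannot be told apart.

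Many genes differed between DSS and CON, most of them by little. The share of mapped reads also separated the groups, and its part cannot be told apart from that of DSS. Of the 13483 genes tested, 3655 passed, which is 27.1%. Among them 1889 were higher in DSS (14.0% of those tested) and 1766 were lower (13.1%), with a median log2 fold change of 0.53 among the higher and -0.57 among the lower genes. A change of at least 2-fold was reached by 178 higher and 184 lower genes, one of at least 4-fold by 17 and 11, and 2070 of the 3655 changed by less than 1.5-fold. The groups did not overlap for 1059 genes (7.85%), with every DSS library above every CON library for 557 (4.13%) and below for 502 (3.72%). All counts of list members given below are to be read against these shares over all genes. The even split depends on the scale. When FPKM was rescaled to the same sum in every library, 31.0% of the genes that passed were higher (1169 higher, 2607 lower) in place of 51.7%, and the median log2 fold change of all genes moved to -0.12, against -0.01 before. Rescaled over protein-coding genes alone, a setting chosen after seeing the data, the share was 27.1% (1020 higher, 2748 lower) at a median of -0.14. Each named gene that passed kept its call and direction under both rescalings, as far as it was measured in them. Malat1, Neat1, Rn45s and Igj were not in the protein-coding set. Igj is a protein-coding gene, but the set was matched by gene symbol and did not hold this symbol. Without DSS replicate 7, 113 genes in place of 178 were at least 2-fold higher, and all counts of calls moved by under 1.5 times without any other single library.

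**Figure D1:**
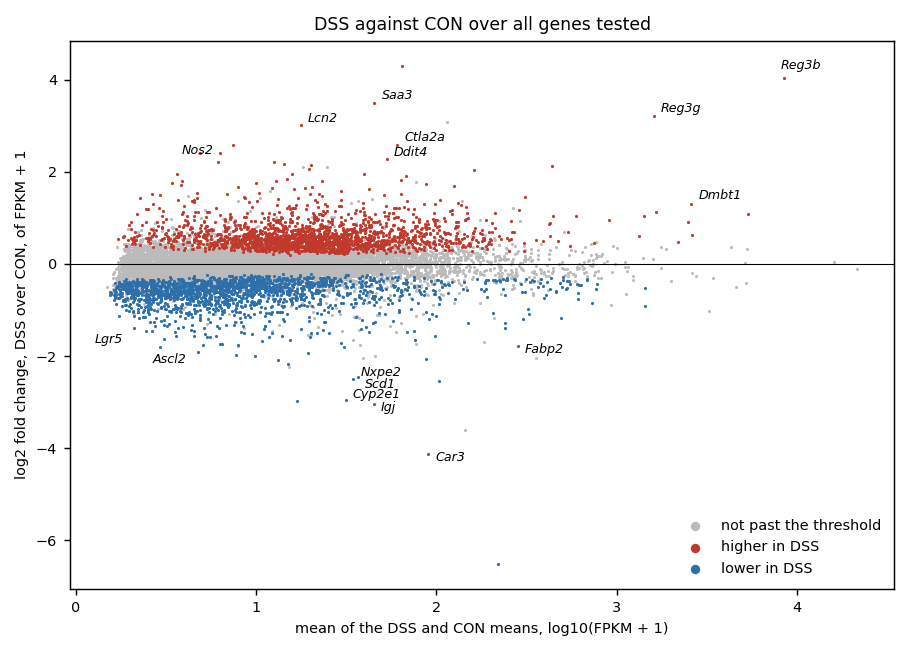
Each point is 1 of the 13483 genes tested, plotted by the mean of its 2 group means, log10(FPKM + 1), and by its log2 fold change of FPKM + 1, DSS over CON; red genes were higher in DSS, blue genes lower and grey genes not past the threshold. Reg3b is both abundant and far above 0, Car3 is the lowest labelled point, and most coloured points sit within 1 log2 unit of 0.

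The genes with the smallest p held large and moderate changes. Reg3b, described with the antimicrobial genes, was among them, and most of the others changed by 2-fold to 4-fold. B4galt1, a galactosyltransferase of the Golgi that builds the N-acetyllactosamine units of glycans, stood at 63.0, 64.7, 73.5, 62.5 and 83.5 FPKM in DSS, against 26.7, 30.7 and 37.9 FPKM in CON. Its log2 fold change was 1.13 ± 0.0983 (SE), with an adjusted p of 7.51e-05, and the groups stood well apart. Dmbt1, a secreted scavenger receptor that binds bacteria at mucosal surfaces (chr7:131032053-131121630, GRCm38), had 4002, 4367, 2910.3, 3352 and 3821 FPKM in DSS, against 1209, 1459 and 1894 FPKM in CON (1.30 ± 0.131, adjusted p = 0.0001). It was among the most abundant genes that rose, and no DSS library came near the CON range. Guanine deaminase, Gda, had 69.7, 65.1, 59.2, 65.8 and 116 FPKM in DSS, against 21.5, 24.7 and 33.9 FPKM in CON (1.49 ± 0.15, adjusted p = 0.0001). Here DSS library 7 was set apart above 4 close values. The genes that fell with equally small p included the growth factor Fgf1, at 6.29 to 9.47 FPKM in DSS against 14.9 to 24.6 FPKM in CON (-1.24 ± 0.127, adjusted p = 0.0001). B3galt2, a beta-1,3-galactosyltransferase, lay at 2.04 to 3.12 FPKM in DSS against 7.24 to 18.2 FPKM in CON (-1.75 ± 0.177, adjusted p = 0.0001). Of the glycan enzymes, Cmah also fell, the hydroxylase that turns N-acetylneuraminic into N-glycolylneuraminic acid, with 7.95, 12.0, 6.42, 5.67 and 3.52 FPKM in DSS against 18.5, 29.8 and 44.2 FPKM in CON (-1.94 ± 0.251, adjusted p = 0.000414).

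Secreted antimicrobial and acute-phase proteins held the largest increases. Of 25 listed genes 22 were tested, and 10 rose and 1 fell, against 14.0% and 13.1% of all genes, with a median log2 fold change of 1.09 against -0.01 over all genes. The count of 1 lower gene was 0 without DSS replicate 7 and 2 without CON replicate 1 or 8. For 8 of the 22 every DSS library lay above every CON library, against 4.13% of all genes. The C-type lectins Reg3b, Reg3g and Reg3a, which bind and kill bacteria at the epithelium, are neighbours on chromosome 6 (Reg3b at chr6:78370657-78373466, Reg3a at chr6:78380709-78383827 and Reg3g at chr6:78466269-78468872, GRCm38, GENCODE M21). Reg3b was at 25761, 15827, 7637, 10982 and 19958 FPKM in DSS, against 422, 1048 and 1764 FPKM in CON (4.02 ± 0.391, adjusted p = 0.0001). Even the lowest DSS library stood far above the highest CON library, and the DSS libraries varied widely among themselves. Reg3g was at 7054, 1959, 636, 1308 and 3797 FPKM in DSS, against 102, 288 and 382 FPKM in CON (3.22 ± 0.526, adjusted p = 0.00155). Reg3a was far less abundant, at 10.4, 6.65, 8.80, 3.04 and 31.5 FPKM in DSS against 0.103, 0.695 and 2.07 FPKM in CON (2.58 ± 0.372, adjusted p = 0.000759). The lectins thus rose at very different levels, and whether reads were shared among these related genes was not tested.

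The serum amyloid genes, which encode retinol-binding acute-phase proteins, rose at 2 levels of abundance. Saa1 was at 673, 793, 255, 542 and 1236 FPKM in DSS, against 62.9, 122 and 399.7 FPKM in CON (2.13 ± 0.472, adjusted p = 0.0065), with DSS library 5 inside the CON range. Saa3 had 74.3, 56.3, 24.4, 50.7 and 212 FPKM in DSS, against 2.24, 4.22 and 9.72 FPKM in CON (3.49 ± 0.418, adjusted p = 0.000335), with no overlap. The DSS libraries were most uneven for Lcn2, lipocalin 2, which withholds iron from bacteria by binding their siderophores. It stood at 17.9, 1.40, 15.8, 2.12 and 127 FPKM in DSS, against 0.223, 0.433 and 1.14 FPKM in CON (3 ± 0.745, adjusted p = 0.0116). Libraries 2 and 6 were barely above the CON range, and library 7 was far above both. The calprotectin genes S100a8 and S100a9, abundant in neutrophils, were also highest in library 7 and lowest in library 6. S100a8 had 4.05, 1.63, 9.39, 1.40 and 34.9 FPKM in DSS, against 0, 0 and 0.896 FPKM in CON (2.41 ± 0.526, adjusted p = 0.00602). S100a9 had 4.25, 2.84, 8.23, 0.635 and 22.6 FPKM in DSS, against 0, 0.0828 and 0.397 FPKM in CON (2.40 ± 0.44, adjusted p = 0.00226). Retnlg, another neutrophil transcript, had 1.93, 1.29, 1.26, 0.270 and 11.7 FPKM in DSS against 0 to 0.211 FPKM in CON (1.52 ± 0.379, adjusted p = 0.0103). With a pseudocount of 0.1 in place of 1 these 3 neutrophil genes had log2 fold changes of 4.55, 4.61 and 3.74. Of 24 listed neutrophil genes only 5 were tested, because 18 were below the filter and 1 was not in the table, and 4 of the 5 rose. S100a8, S100a9 and Retnlg stayed under 1 FPKM in every CON library and met the filter through DSS libraries alone. The count of 4 was therefore in part set by the filter. That count was 2 without DSS replicate 1, 2, 5 or 7, where S100a9 and Retnlg were below the filter. The receptor Csf3r, a defining marker of neutrophils, was under 1 FPKM in all 13 libraries. The acute-phase glycoprotein Lrg1 rose as well, with 66.1, 10.5, 8.36, 2.82 and 32.3 FPKM in DSS against 1.27, 2.42 and 4.78 FPKM in CON (2.17 ± 0.529, adjusted p = 0.0104).

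**Figure D2:**
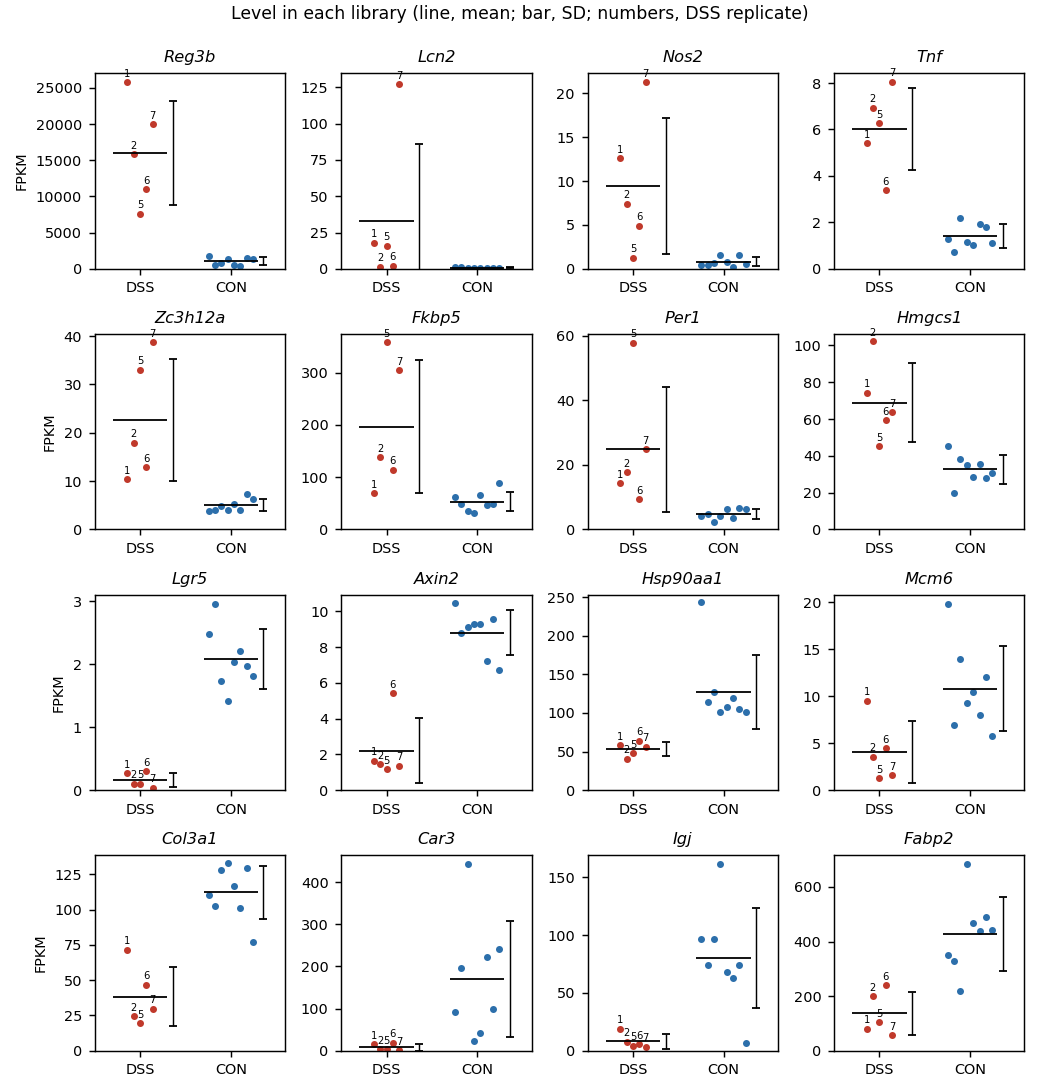
Level in FPKM of 16 genes in each DSS library (red, numbered by replicate) and each CON library (blue), on linear axes that start at 0, with the mean as a line and the SD as a bar beside the points, cut at 0 where it would pass below. The DSS libraries lie far above CON for Reg3b and far below it for Lgr5, while for Lcn2, Fkbp5 and Per1 the DSS libraries differ widely among themselves.

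Enzymes that make oxidants changed in both directions. Of 14 listed genes 12 were tested, 5 rose and 2 fell, but without DSS replicate 7 only 2 rose, and without any 1 of DSS replicates 1, 2, 5 and 6 or CON replicates 1 to 6 only 1 fell. Nos2, the inducible nitric oxide synthase, had 12.6, 7.41, 1.26, 4.94 and 21.3 FPKM in DSS, against 0.263, 0.633 and 1.62 FPKM in CON (2.22 ± 0.409, adjusted p = 0.00231). Only DSS library 5 lay inside the CON range. Duox2, the dual oxidase that releases hydrogen peroxide from the apical surface, had 145, 75.1, 35.5, 51.9 and 169 FPKM in DSS, against 16.2, 26.5 and 58.0 FPKM in CON (1.51 ± 0.39, adjusted p = 0.013). Nox1, the superoxide-producing oxidase of colonic crypts, fell, with 0.689, 1.59, 1.03, 4.59 and 1.31 FPKM in DSS against 2.23, 4.45 and 10.8 FPKM in CON (-1.08 ± 0.313, adjusted p = 0.0204). Its DSS library 6 reached the CON median.

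The NF-kappaB list holds the subunits, the inhibitors that bind them and the feedback genes that NF-kappaB itself induces. All 23 listed genes were tested, and 9 rose and 1 fell, against 14.0% and 13.1% of all genes. The median log2 fold change was 0.32, and 2 fell without DSS replicate 1 or 7. The promoter window of 250 bases before the annotated start, taken from RefSeq (GRCm38.p6), was available for 19 of them. A kappaB motif, read as GGGA, any base, TT, any base and CC, or its complement on the other strand, was found in 5 of these 19 (26.3%) and in 137 of 10089 tested genes with a window (1.36%). Of the 9 members with a window that passed, 4 held it. A match is a run of letters and not a measured binding site. The stretches around the match in Nfkbia and Tnip3, both of which rose, are shown because each holds 1 such run, in capitals. That of Nfkbia lies at chr12:55492648-55492706 on the minus strand and that of Tnip3 at chr6:65590314-65590383 on the plus strand.
Nfkbia: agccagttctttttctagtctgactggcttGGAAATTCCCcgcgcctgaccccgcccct
Tnip3: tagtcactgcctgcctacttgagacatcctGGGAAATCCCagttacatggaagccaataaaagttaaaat

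Nfkbia, the inhibitor that holds NF-kappaB in the cytoplasm, had 49.7, 67.1, 150.5, 43.4 and 131 FPKM in DSS, against 27.7, 30.6 and 42.9 FPKM in CON (1.22 ± 0.261, adjusted p = 0.00493). Tnip3, a partner of the ubiquitin-editing inhibitor Tnfaip3, had 6, 2.85, 2.86, 2.75 and 13.5 FPKM in DSS, against 0.639, 0.921 and 2.52 FPKM in CON (1.37 ± 0.312, adjusted p = 0.00655). The largest increase of the list was that of Zc3h12a, the ribonuclease that degrades inflammatory mRNAs, at 10.4, 17.9, 33.0, 12.8 and 38.7 FPKM in DSS against 3.82, 4.47 and 7.37 FPKM in CON (1.83 ± 0.265, adjusted p = 0.000739). None of these 3 genes overlapped between the groups, and in each DSS library 7 was the highest or the next to highest. The nuclear inhibitor Nfkbiz rose by less, to 27.5, 29.5, 47.1, 33.4 and 53.3 FPKM in DSS against 17.9, 22 and 26.9 FPKM in CON (0.75 ± 0.157, adjusted p = 0.00448). Traf1, an adaptor of tumour necrosis factor receptors in lymphoid cells, was the member that fell, with 1.43, 3.85, 1.02, 1.48 and 2.14 FPKM in DSS against 3.91, 5.54 and 7.88 FPKM in CON (-1.23 ± 0.194, adjusted p = 0.00108).

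Genes of bacterial sensing and of STAT3 signalling that passed were all higher, though most members did not pass. Of 25 listed Toll-like and NOD-like sensing genes 21 were tested, and 9 rose and 0 fell, against 14.0% and 13.1% of all genes. The median was 0.34. Nlrc4, the inflammasome adaptor that responds to bacterial flagellin, had 21.0, 20.7, 21.5, 20.5 and 25.3 FPKM in DSS, against 12.3, 16.2 and 17.9 FPKM in CON (0.43 ± 0.0957, adjusted p = 0.00572). Aim2, the sensor of cytosolic DNA, had 9.90, 15.7, 17.4, 16.3 and 17.6 FPKM in DSS, against 9.38, 10.1 and 10.4 FPKM in CON (0.55 ± 0.114, adjusted p = 0.00426). Library 1 was the only DSS library within the narrow CON range of Aim2. All 18 genes of the STAT3 list were tested, and 5 rose and 0 fell (median 0.34), against the same 14.0% and 13.1%. Stat3 itself was at 51.8, 55.6, 67.0, 41.8 and 87.5 FPKM in DSS, against 27.2, 31.1 and 34.7 FPKM in CON (0.90 ± 0.139, adjusted p = 0.00102). Its groups stood apart. Il22ra1, the epithelial receptor for interleukin 22, whose signal runs through STAT3 to Reg3 genes in mice, had 20, 17.7, 19.5, 20.1 and 20 FPKM in DSS, against 6.80, 12.6 and 17.6 FPKM in CON (0.66 ± 0.166, adjusted p = 0.0104). Cebpd and Cebpb, transcription factors of the acute-phase response, rose to 13.5 to 62.5 FPKM and 12.9 to 22.5 FPKM in DSS, against 6.42 to 12.2 FPKM and 4.68 to 11.2 FPKM in CON. Their log2 fold changes were 1.51 ± 0.287 (adjusted p = 0.0026) for Cebpd and 0.91 ± 0.172 (adjusted p = 0.00243) for Cebpb.

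Few cytokines were abundant enough to test. Of 33 interleukins and other cytokines 22 were below the filter, and of the 11 tested 3 rose and 2 fell. Only 1 of these fell without any 1 of DSS replicates 5 and 7 or CON replicates 2, 3, 5, 6 and 8. Tnf was at 5.41, 6.94, 6.26, 3.39 and 8.06 FPKM in DSS, against 0.739, 1.21 and 2.18 FPKM in CON (1.53 ± 0.184, adjusted p = 0.000317), with every DSS library above the CON range. Il18, which epithelial cells store as an inactive precursor, had 111, 56.9, 69.6, 39.9 and 91.3 FPKM in DSS, against 23.3, 29.7 and 48.3 FPKM in CON (1.09 ± 0.243, adjusted p = 0.00579). Il1b did not pass, with 1.48, 0.616, 0.611, 0.809 and 9.17 FPKM in DSS against 0.325, 1.07 and 2.25 FPKM in CON (0.31 ± 0.371, adjusted p = 0.559). Its value was carried by library 7, and without that replicate it was -0.18 (adjusted p = 0.537). Of 32 chemokines 17 were tested, 1 rose and 2 fell, and without DSS replicate 2 neither count held a gene. Without DSS replicate 7, 0 rose and 1 fell, without DSS replicate 6, 2 rose and 1 fell, without DSS replicate 1, 2 rose, and without CON replicate 2 or 3, 1 fell.

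Transcripts of white blood cells had no common direction. Ptprc, the pan-leukocyte marker CD45, fell, with 4.53, 4.45, 4.03, 3.19 and 3.83 FPKM in DSS against 4.12, 10.9 and 16.3 FPKM in CON (-1.04 ± 0.26, adjusted p = 0.0104). The DSS values were close together, while the CON libraries spread widely. Cx3cr1, the fractalkine receptor of resident macrophages, had 1.96, 0.526, 0.279, 0.272 and 0.320 FPKM in DSS, against 0.715, 2.51 and 3.29 FPKM in CON (-1.05 ± 0.239, adjusted p = 0.00638), a ratio of mean FPKM of 3.54-fold lower. Gzma, the granzyme of cytotoxic lymphocytes, rose, with 5.58, 4, 0.960, 4.33 and 7.07 FPKM in DSS against 0.320, 0.618 and 2.50 FPKM in CON (1.39 ± 0.303, adjusted p = 0.00521). The summed level of the T cell markers Cd3e and Cd3g was 3.11 to 5.52 FPKM in DSS and 2.11 to 5.91 FPKM in CON. Antigen presentation genes are given by class, and the difference between the classes was not tested. All 12 genes of the MHC class II list were tested and 5 fell, none rose, with a median of -0.67. That count was 3 without any 1 of DSS replicate 5 and CON replicates 1, 2, 3, 5 and 6, and 8 without CON replicate 8. H2-Eb1 had 16.7, 12.3, 10.9, 10.6 and 15 FPKM in DSS, against 10.5, 34.0 and 41.9 FPKM in CON (-1.09 ± 0.256, adjusted p = 0.00769). Of 13 class I genes tested 4 rose and 0 fell, with 2 without any 1 of DSS replicates 2, 6 and 7 and CON replicate 2, and 7 without DSS replicate 5. Tap2, the peptide transporter of that pathway, had 15.2, 23.1, 14.3, 20.7 and 27.8 FPKM in DSS, against 9.99, 11.8 and 17.8 FPKM in CON (0.63 ± 0.169, adjusted p = 0.0147). Interferon-induced genes were mixed, with 1 of 34 tested higher and 3 lower. Without DSS replicate 5, 9 rose and 1 fell, and without DSS replicate 1, 2 rose. Ifi27l2a fell, to 20.7, 3.63, 7.59, 14.6 and 17.0 FPKM in DSS against 16.3, 43.7 and 91.6 FPKM in CON (-1.81 ± 0.434, adjusted p = 0.00935).

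Most tested genes that glucocorticoids induce in many tissues rose. Of 25 listed genes 23 were tested, and 13 rose and 0 fell, against 14.0% and 13.1% of all genes. The median log2 fold change was 0.99. For 8 every DSS library lay above every CON library, against 4.13% of all genes. A palindromic glucocorticoid response element, read as G, any base, ACA, a spacer of 3 bases, TGT, any base and C, which is the same pattern on both strands, was found in 3 of 19 members with a promoter window (15.8%) and in 31 of 10089 tested genes (0.307%). Of the 11 members with a window that rose, 1 held it, Sgk1, and the other matches were in members that did not pass. The stretch of the Sgk1 promoter that holds it, at chr10:21993672-21993744 on the plus strand, is shown because Sgk1 is both a steroid-induced kinase and a regulator of sodium transport. The matched run is in capitals.
Sgk1: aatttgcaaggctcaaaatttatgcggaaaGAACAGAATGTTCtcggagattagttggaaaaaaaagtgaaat

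Sgk1 had 318, 356, 1065, 107 and 541 FPKM in DSS, against 67.5, 149 and 216 FPKM in CON (1.45 ± 0.428, adjusted p = 0.0247). Library 6 lay below the CON median and library 5 far above the CON maximum, and the call was lost without DSS replicate 5 or 7. Fkbp5, a co-chaperone of the glucocorticoid receptor (chr17:28399094-28517527), had 69.0, 139, 358, 114 and 304 FPKM in DSS, against 31.1, 48.6 and 88.7 FPKM in CON (1.68 ± 0.354, adjusted p = 0.00468). Ddit4, an inhibitor of mTORC1, had 25.8, 51.4, 188, 34.8 and 154 FPKM in DSS, against 7.98, 13.6 and 15.9 FPKM in CON (2.27 ± 0.407, adjusted p = 0.00226). Libraries 5 and 7 were the highest DSS libraries for both genes. Errfi1, a feedback inhibitor of the EGF receptor, followed with 39.2, 61.1, 103, 47.1 and 127 FPKM in DSS against 23.1, 28.0 and 34.0 FPKM in CON (1.25 ± 0.228, adjusted p = 0.0021). Tat, tyrosine aminotransferase, a glucocorticoid-induced enzyme of liver, was at 16.2 to 22.3 FPKM in 4 DSS libraries and 72.6 FPKM in library 7, against 5.98 to 11.8 FPKM in CON (1.51 ± 0.299, adjusted p = 0.00333). As a list mean, the 23 genes lay 0.57, 0.55, 1.96, 0.50 and 1.96 log2 units above the CON mean in DSS libraries 1, 2, 5, 6 and 7. Hormone levels were not measured.

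Clock genes shared part of this pattern. Of 20 listed genes 19 were tested, and 8 rose and 0 fell (median 0.89). Per1, a light- and steroid-responsive repressor of the clock, had 14.3, 17.8, 57.8, 9.35 and 24.9 FPKM in DSS, against 2.27, 4.59 and 6.52 FPKM in CON (1.94 ± 0.329, adjusted p = 0.00155). Nfil3, a repressor of clock output genes, had 19.6, 20.5, 44.6, 13.3 and 40.2 FPKM in DSS, against 3.85, 7.87 and 10.8 FPKM in CON (1.65 ± 0.278, adjusted p = 0.00152). Every DSS library was above every CON library for both. Cry2, a partner of the Per proteins, had 7.41, 13.3, 56.7, 10.5 and 18.9 FPKM in DSS, against 4.97, 6.58 and 8.11 FPKM in CON (1.22 ± 0.336, adjusted p = 0.0168). Its fold change rested in part on library 5 and was 0.78 without it (adjusted p = 0.0116). The E-box CACGTG, the same on both strands, was found in 4 of 16 members with a promoter window (25.0%) and in 978 of 10089 genes (9.69%). Of the 7 members with a window that rose, 2 held it. The sources used here do not give the hour at which tissue was taken, so time of day and DSS cannot be told apart for these genes.

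Immediate early genes, which are transcribed within minutes of a stimulus, rose in 10 of 20 cases tested and fell in 0, with a median of 0.85, and 3 of the 23 listed were below the filter. Zfp36, a protein that shortens the life of Tnf and other mRNAs, had 71.4, 82.6, 144, 69.5 and 331 FPKM in DSS, against 20.1, 33.8 and 52.4 FPKM in CON (1.73 ± 0.324, adjusted p = 0.00255). The AP-1 subunit Jun had 59.4, 99.2, 108, 84.7 and 173 FPKM in DSS, against 32.1, 41.9 and 62.0 FPKM in CON (1.19 ± 0.21, adjusted p = 0.00177). Only library 1 overlapped the CON range of Jun. Klf4, a transcription factor of differentiating surface epithelium, had 124, 261, 197, 199.8 and 179.9 FPKM in DSS, against 67.7, 95.7 and 149 FPKM in CON (0.97 ± 0.185, adjusted p = 0.0026).

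The stem cell programme was the gene group with the largest share of decreases among those in the plot of list members. Of 22 listed intestinal stem cell genes 21 were tested, and 16 fell and 1 rose, against 13.1% and 14.0% of all genes, with a median of -0.59. The member that rose was Prom1, and 2 rose without DSS replicate 6. For 9 every DSS library was below every CON library, against 3.72% of all genes. Lgr5, the receptor for R-spondins that marks crypt base stem cells (chr10:115450311-115587780), had 0.264, 0.0996, 0.103, 0.3 and 0.0409 FPKM in DSS, against 1.42, 2 and 2.96 FPKM in CON. The log2 fold change was -1.40 ± 0.127 (adjusted p = 7.51e-05), and the ratio of mean FPKM was 12.9-fold lower in DSS. Ascl2, the transcription factor that controls the stem cell state downstream of Wnt, had 0.253, 0, 0, 1.37 and 0.145 FPKM in DSS, against 2.43, 3.15 and 4.88 FPKM in CON (-1.81 ± 0.201, adjusted p = 0.000224), a ratio of mean FPKM of 10.02-fold lower. Axin2, a direct target and inhibitor of Wnt signalling, had 1.65, 1.44, 1.18, 5.43 and 1.37 FPKM in DSS, against 6.70, 9.21 and 10.4 FPKM in CON (-1.73 ± 0.214, adjusted p = 0.00032). DSS library 6 was the highest of its group for all 3 genes and still below every CON library. The hyaluronan receptor Cd44, also a Wnt target, had 9.91, 14.2, 14.0, 15.5 and 8.65 FPKM in DSS, against 28.4, 35.0 and 51.5 FPKM in CON (-1.49 ± 0.156, adjusted p = 0.000125). Ephb3, which sorts cells along the crypt, lay at 2.07 to 5.06 FPKM in DSS against 6.38 to 11.4 FPKM in CON (-1.34 ± 0.166, adjusted p = 0.00032), and the receptor Tnfrsf19 at 0.417 to 1.69 FPKM in DSS against 2.42 to 4.28 FPKM in CON (-1.33 ± 0.152, adjusted p = 0.00026, with a ratio of mean FPKM of 4.29-fold lower). Both groups of values were fully separate. The list mean was 0.56 to 0.80 log2 units below the CON mean in every DSS library.

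Not every Wnt gene fell. Of 21 Wnt receptor and target genes tested 5 fell and 2 rose, with 4 higher without DSS replicate 5 and 1 higher without any 1 of DSS replicate 7 and CON replicates 3 and 5. Tcf7l2, the transcription factor that carries the Wnt signal in intestinal epithelium, had 21.5, 43.6, 33.1, 47.6 and 54.3 FPKM in DSS, against 11.8, 13.9 and 23 FPKM in CON (1.26 ± 0.212, adjusted p = 0.00152). Only library 1 lay inside the CON range. Of the 21 listed stromal Wnt ligands, R-spondins and antagonists 11 were below the filter, and of the 10 tested 2 fell, both antagonists, with 1 without any 1 of CON replicates 4 to 7, where Dkk2 was below the filter. Sfrp1 had 3.17, 1.72, 3.20, 3.01 and 2.52 FPKM in DSS, against 3.73, 5.14 and 5.90 FPKM in CON (-0.74 ± 0.13, adjusted p = 0.00175). Dkk2 had 0.0349 to 0.317 FPKM in DSS, against 0.364, 1.10 and 1.28 FPKM in CON (-0.66 ± 0.154, adjusted p = 0.00731). Foxl1, the transcription factor of the telocytes that line the crypts and secrete Wnts, had 0.486, 0.136, 0.106, 0.417 and 0.0663 FPKM in DSS, against 0.588, 1.01 and 1.5 FPKM in CON (-0.72 ± 0.148, adjusted p = 0.00367). Sfrp1, Dkk2 and Foxl1 had no overlap between the groups, and for the rare Dkk2 and Foxl1 the ratio of mean FPKM was 4.57-fold and 4.38-fold lower in DSS. Dkk2 and Foxl1 were under 1 FPKM in every DSS library and met the filter through CON libraries alone. The BMP pathway opposes stem cell renewal. Of 19 BMP ligands, antagonists and targets tested 10 fell and 2 rose, against 13.1% and 14.0% of all genes. Ligands and antagonists have opposite effects, so these counts do not give the direction of the signal. The number that fell was 4 to 6 without any 1 of DSS replicates 2 and 5 and CON replicates 2, 3, 4, 5 and 7. Only 1 rose without any 1 of DSS replicates 1, 5 and 7 and CON replicates 1, 4, 6 and 7. Of 18 Notch pathway and secretory fate genes 7 fell and 1 rose, against the same 13.1% and 14.0%. Here 4 were lower without any 1 of DSS replicates 5 and 7 and CON replicates 1, 2, 5 and 7. Notch1 itself had 6.34, 6.09, 5.55, 7.19 and 4.36 FPKM in DSS, against 7.27, 8.52 and 10.3 FPKM in CON (-0.50 ± 0.113, adjusted p = 0.00632).

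**Figure D3:**
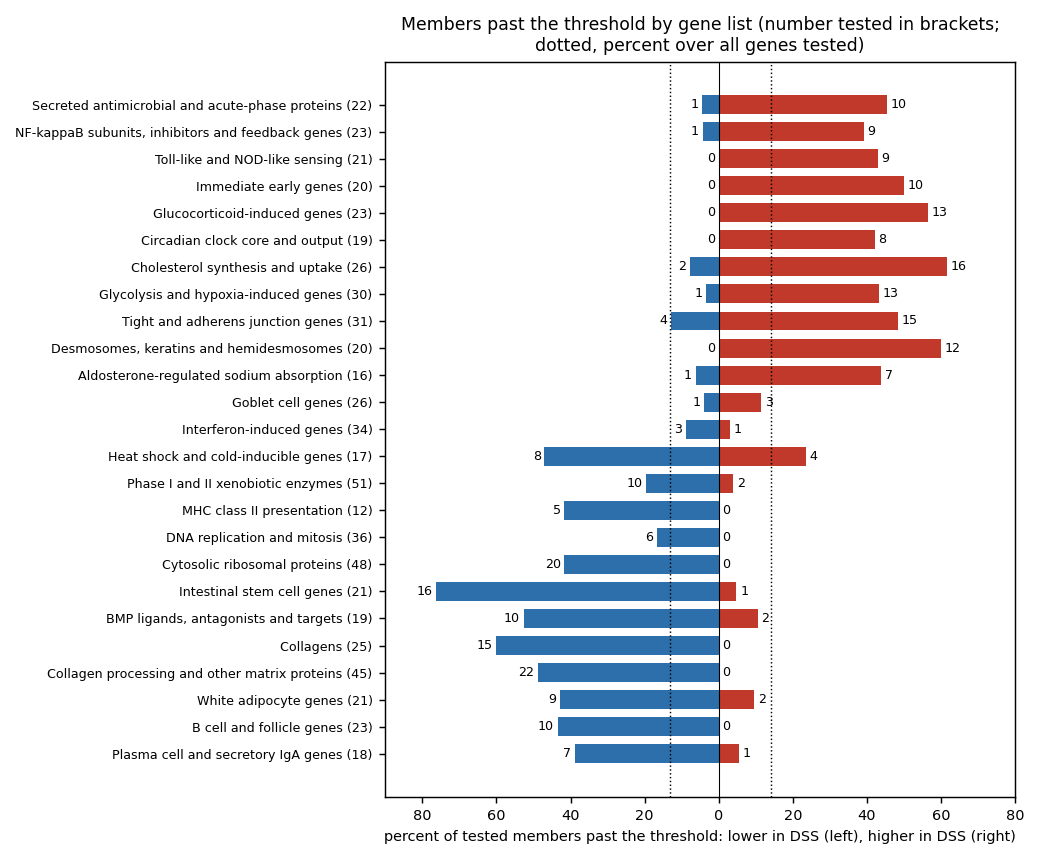
For 25 gene lists the bars give the percent of tested members that were lower (blue, left) or higher (red, right) in DSS, with the number of members beside each bar and the number tested in brackets; dotted lines mark the 13.1% and 14.0% over all genes tested. Intestinal stem cell genes and collagens extend furthest to the left, and cholesterol synthesis, desmosome and keratin, and glucocorticoid-induced genes furthest to the right.

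Ligands of the EGF receptor, which drive epithelial repair, were among the genes that rose. Of 22 genes of that list tested 7 rose and 1 fell, and 0 fell without any 1 of DSS replicates 2 and 6 and CON replicates 1, 5 and 7. Amphiregulin, Areg, had 6.23, 11.3, 19.0, 6.95 and 30.7 FPKM in DSS, against 1.43, 3.26 and 5.67 FPKM in CON (1.75 ± 0.351, adjusted p = 0.00349). Epiregulin, Ereg, had 13, 8.57, 11.5, 5.82 and 30.6 FPKM in DSS, against 1.44, 4.14 and 7.85 FPKM in CON (1.36 ± 0.339, adjusted p = 0.0105). Tgfa was the most even of the ligands, with 17.9, 25.0, 30.1, 19.8 and 28.1 FPKM in DSS against 10.2, 12.6 and 16.6 FPKM in CON (0.81 ± 0.134, adjusted p = 0.00134). The fetal-like regenerating programme, described in mouse colon after DSS, had no common direction across the DSS libraries. Of its 21 tested genes 5 were higher and 1 lower, against 14.0% and 13.1% of all genes, with a list median of 0.02 (-0.10 with FPKM rescaled to the same sum). Without DSS replicate 2, 3 were higher, without DSS replicate 1 or 5 or CON replicate 7, 2 were lower, and without DSS replicate 7, 3 were lower. The list mean was 0.927 log2 units above the CON mean in DSS library 7. It was -0.106 to 0.165 in DSS libraries 1, 2, 5 and 6, against -0.198 to 0.215 in CON. DSS was given in the last week, so a phase after its withdrawal was not examined. The marker of this programme Ly6a, also called Sca-1, did not pass, with 48.0, 13.1, 8.74, 30.4 and 163 FPKM in DSS against 5.77, 13.4 and 16.7 FPKM in CON (1.32 ± 0.546, adjusted p = 0.0866). Libraries 1, 6 and 7 were above every CON library and libraries 2 and 5 within their range. Without DSS replicate 7 the value was 0.73 (adjusted p = 0.192), and without DSS replicate 5 Ly6a was called (1.75, adjusted p = 0.028).

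Proliferation genes split the DSS libraries. All 36 listed DNA replication and mitosis genes were tested, 6 fell and 0 rose, with a median of -0.50, and the 6 were Pcna and 5 subunits of the MCM helicase that unwinds DNA at replication origins. The count was 23 without DSS replicate 1, 3 without DSS replicate 2, 1 without DSS replicate 5 and 2 without DSS replicate 7. It was 0 without DSS replicates 6 and 7, a setting chosen after seeing the data. Mcm6 had 9.53, 3.57, 1.28, 4.44 and 1.56 FPKM in DSS, against 5.80, 9.87 and 19.9 FPKM in CON (-1.36 ± 0.341, adjusted p = 0.0107). Mki67, the proliferation antigen, had 27.1, 5.42, 5.13, 9.13 and 5.04 FPKM in DSS, against 7.84, 13.2 and 28.2 FPKM in CON and did not pass (-0.69 ± 0.358, adjusted p = 0.161). Library 1 was near the CON maximum and libraries 2, 5 and 7 lay below the CON minimum. Without DSS replicate 1 Mki67 was called (-1.09, adjusted p = 0.00735). The mean of the 36 genes was 0.48 log2 units above the CON mean in library 1 and 0.20 to 0.94 below it in the other 4. Replication-dependent histones, which are made in S phase and lack a poly(A) tail, had the same split, with 5 of 29 tested genes lower, 20 without DSS replicate 1 and 2 or 3 without any 1 of DSS replicates 2, 5, 6 and 7 and CON replicates 1, 3, 5 and 7. Among cell cycle inhibitors and p53 targets 8 of 23 rose and 2 fell, with 1 lower without DSS replicate 2. Cdkn1a, the inhibitor p21, had 25.8, 78.1, 218, 94.6 and 129 FPKM in DSS, against 11.4, 21.8 and 47.9 FPKM in CON (1.92 ± 0.423, adjusted p = 0.00629). Library 1, the DSS library with the highest Mki67, had the lowest Cdkn1a. Of 23 apoptosis and necroptosis genes 9 rose, but 1 did without DSS replicate 7 and 5 did without CON replicate 2, 3 or 5. Ripk3, the kinase of necroptosis, had 22.5, 15.2, 6.58, 15.5 and 29.5 FPKM in DSS, against 5.25, 7.66 and 9.60 FPKM in CON (1.02 ± 0.253, adjusted p = 0.01).

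Most chaperone genes that passed fell, while the cold-inducible RNA-binding genes Cirbp and Rbm3 rose. All 17 genes of this list were tested, 8 fell and 4 rose, among them the co-chaperone Bag3. A heat shock element, read as GAA, TTC and GAA with 2 bases between each, or its complement on the other strand, was found in 2 of 12 members with a promoter window (16.7%) and in 51 of 10089 genes (0.506%). Both are mitochondrial chaperonin genes, Hspd1 and its partner Hspe1, which lie head to head and share the window at chr1:55088029-55088106, read on the minus strand for Hspd1 and on the plus strand for Hspe1. Both were named after their values were seen, for this shared sequence. Capitals mark 2 overlapping matches.
Hspd1: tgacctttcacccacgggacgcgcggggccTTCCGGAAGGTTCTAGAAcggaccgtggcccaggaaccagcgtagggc
Hspe1: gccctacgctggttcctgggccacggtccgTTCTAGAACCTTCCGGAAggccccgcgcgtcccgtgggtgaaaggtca

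Hspd1 had 77.7, 68.4, 46.2, 82.5 and 47.3 FPKM in DSS, against 81.3, 93.2 and 141 FPKM in CON (-0.60 ± 0.166, adjusted p = 0.0163). Hspe1 had 98.2, 69.9, 41.4, 79.5 and 45.1 FPKM in DSS, against 85.9, 97.9 and 149 FPKM in CON (-0.67 ± 0.195, adjusted p = 0.0209). Libraries 5 and 7 were the lowest for both genes. The call of Hspd1 was lost without DSS replicate 7, and that of Hspe1 without DSS replicate 5 or 7. The cytosolic chaperones fell more evenly. Hsp90aa1, the inducible HSP90, had 58.0, 40.4, 47.7, 63.8 and 56.3 FPKM in DSS, against 101, 111 and 243 FPKM in CON (-1.20 ± 0.189, adjusted p = 0.00107). Hspa8, the constitutive HSP70, had 489, 474, 516, 635 and 466 FPKM in DSS, against 734, 861 and 1608 FPKM in CON (-0.85 ± 0.164, adjusted p = 0.00281). CON library 1 was the highest for both, and the groups were separate with or without it. Cirbp, the cold-inducible RNA-binding protein, went the other way, with 56.2, 92.7, 164, 43.3 and 145 FPKM in DSS against 15.9, 24.1 and 31.8 FPKM in CON (1.82 ± 0.278, adjusted p = 0.00102). Among ribosomal protein genes the changes were small, with 20 of 48 tested lower and 0 higher and a median of -0.25, and 8 lower without DSS replicate 7. Without DSS replicates 6 and 7, a setting chosen after seeing the data, 1 was lower and 1 higher. With FPKM rescaled to the same sum 34 were lower. Rps18 had 414, 491, 470.2, 447 and 355 FPKM in DSS, against 506, 625 and 681 FPKM in CON (-0.52 ± 0.104, adjusted p = 0.00341).

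Most genes of cholesterol synthesis and uptake rose. All 26 listed genes were tested, and 16 rose and 2 fell, against 14.0% and 13.1% of all genes, with a median of 0.75. For 9 every DSS library lay above every CON library, against 4.13% of all genes. The list is known for control by SREBP2, which binds sterol response elements beside CCAAT boxes. In the promoter windows the run CCAAT or ATTGG was found in 15 of 17 members (88.2%) and in 4027 of 10089 genes (39.9%), and the run TCACNCCAC or GTGGNGTGA in 1 member, Hmgcs1, and in 126 genes (1.25%). That stretch, at chr13:119690184-119690252 on the plus strand, is shown for the matched run in capitals, and Hmgcs1 was chosen after its values were seen.
Hmgcs1: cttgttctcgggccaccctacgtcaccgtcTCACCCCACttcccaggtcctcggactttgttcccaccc

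Hmgcs1, the synthase that makes HMG-CoA, had 74.3, 102, 45.3, 59.5 and 63.6 FPKM in DSS, against 20, 32.9 and 45.4 FPKM in CON (1.04 ± 0.193, adjusted p = 0.00227). DSS library 5 lay just under the CON maximum and the other 4 above it. The members that fell were the sterol exporters Abcg5 and Abcg8, which return cholesterol to the lumen. Abcg8 had 0.299, 0.279, 0.621, 0.468 and 0.504 FPKM in DSS, against 1.18, 1.80 and 3.16 FPKM in CON (-1.04 ± 0.161, adjusted p = 0.00102), a ratio of mean FPKM of 4.64-fold lower. Here the order of the DSS libraries differed from that of the inflammatory genes, with library 2 highest in the list mean at 0.97 log2 units above CON.

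Among genes that hold epithelial cells to each other and to the basement membrane, more rose than fell. Of 21 listed desmosome, keratin and hemidesmosome genes 20 were tested, and 12 rose and 0 fell (median 0.55), against 14.0% and 13.1% of all genes. Dsg2, the desmosomal cadherin of simple epithelia, had 59.3, 109.6, 111, 93.0 and 126 FPKM in DSS, against 29.0, 41.7 and 85.0 FPKM in CON (1.08 ± 0.223, adjusted p = 0.00397). Dsp, the plakin that ties desmosomes to keratin filaments, had 121, 172, 157, 112 and 146 FPKM in DSS, against 68.3, 83.9 and 125 FPKM in CON (0.67 ± 0.143, adjusted p = 0.00484). Jup, plakoglobin, was narrow in DSS, with 68.6, 75.9, 77.9, 68.1 and 75.0 FPKM against 38.1, 49.2 and 57.6 FPKM in CON (0.58 ± 0.102, adjusted p = 0.00172). Of 32 tight and adherens junction genes 31 were tested, and 15 rose and 4 fell, against the same 14.0% and 13.1%. Only 2 were lower without any 1 of CON replicates 1, 2, 4 and 5. Cldn4, a claudin that seals surface epithelium, had 65.4, 84.8, 119.6, 56.0 and 85.5 FPKM in DSS, against 19.3, 36.4 and 43.0 FPKM in CON (1.21 ± 0.2, adjusted p = 0.00134). Pard6b, of the apical polarity complex, had 12.1, 18.4, 27.3, 17.2 and 31.7 FPKM in DSS, against 6.14, 8.02 and 11 FPKM in CON (1.22 ± 0.194, adjusted p = 0.00114). Every DSS library exceeded every CON library for both. Cgn, cingulin, and F11r, junctional adhesion molecule A, rose by less. Cgn was at 37.6 to 57.6 FPKM in DSS against 21.0 to 32.4 FPKM in CON (0.81 ± 0.134, adjusted p = 0.00132). F11r was at 113 to 135 FPKM in DSS against 74.1 to 97.1 FPKM in CON (0.51 ± 0.0905, adjusted p = 0.00183). The summed epithelial markers overlapped between the groups, as given above, and 2 of those 8 markers rose; the part of the amount of epithelium in these results was not tested.

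Among ion transport genes, more passed as higher than as lower. Of 16 tested genes of aldosterone-regulated sodium absorption 7 rose and 1 fell, with 4 higher without DSS replicate 7 and 0 lower without any 1 of DSS replicate 5 and CON replicates 1, 3 and 5. The sodium pump subunit Atp1b1 had 368, 619, 720.2, 553 and 714 FPKM in DSS, against 209, 266 and 463 FPKM in CON (1.03 ± 0.19, adjusted p = 0.00223). Hsd11b2, which inactivates corticosterone and so keeps the mineralocorticoid receptor for aldosterone, had 155, 189, 103, 109 and 129 FPKM in DSS, against 31.3, 54.8 and 86.1 FPKM in CON (1.30 ± 0.239, adjusted p = 0.00216). Slc9a3, the apical sodium/proton exchanger NHE3, had 105, 223, 198, 134 and 307 FPKM in DSS, against 50.7, 72.1 and 117 FPKM in CON (1.28 ± 0.273, adjusted p = 0.00472). Of 12 chloride secretion genes, all tested, 6 rose and 1 fell. Best2, a bicarbonate and chloride channel of goblet cells, had 13.5, 17.9, 14.1, 10.5 and 11.9 FPKM in DSS, against 2.67, 6.21 and 10.5 FPKM in CON (1.09 ± 0.213, adjusted p = 0.0029). Absorptive colonocyte genes had no common direction, with 9 of 37 tested higher and 4 lower, and 5 higher without DSS replicate 2. Fabp2, the intestinal fatty acid binding protein (chr3:122895072-122899506), fell, with 81.2, 200, 105, 239.6 and 57.0 FPKM in DSS against 221, 441 and 685 FPKM in CON (-1.77 ± 0.324, adjusted p = 0.00219). The water channel Aqp1, which is carried mainly by endothelium, had 14.5, 26.3, 35.7, 16.5 and 11 FPKM in DSS, against 36.2, 54.0 and 70.1 FPKM in CON (-1.41 ± 0.229, adjusted p = 0.00119). Slc34a2, a phosphate transporter, had 1.07, 3.32, 0.433, 4.80 and 1.5 FPKM in DSS, against 5.04, 9.89 and 21.9 FPKM in CON (-1.98 ± 0.358, adjusted p = 0.00215).

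Goblet cell genes stayed near the background. Of 30 listed genes 26 were tested, 3 rose and 1 fell, with a median of 0.03 (-0.08 with FPKM rescaled), and more fell without DSS replicate 1 (4), DSS replicate 2 or 5 or CON replicate 1 (2 each) or CON replicate 8 (3). Muc2, the gel-forming mucin, did not pass, with 5647, 6008, 6368, 2118 and 3186 FPKM in DSS against 4539.6, 5854 and 6659 FPKM in CON (-0.42 ± 0.229, adjusted p = 0.18). Libraries 1, 2 and 5 were within the CON range and libraries 6 and 7 below it. Under quantile normalization Muc2 was called (-0.84, adjusted p = 0.0458). Zg16, a lectin that binds Gram-positive bacteria in mucus, did not pass either, at 3795 to 6823 FPKM in DSS and 2807 to 6127 FPKM in CON (0.36 ± 0.182, adjusted p = 0.145), but was called without CON replicate 4 (0.47, adjusted p = 0.0378). The transmembrane mucin Muc13 rose, with 1680.4, 1133, 968, 787 and 1506 FPKM in DSS against 472, 624 and 709.7 FPKM in CON (0.95 ± 0.169, adjusted p = 0.0018).

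Collagens and other structural matrix proteins that passed were all lower in DSS. Of 31 listed collagens 25 were tested, and 15 fell and 0 rose, against 13.1% and 14.0% of all genes, with a median of -0.57. Col3a1, a fibrillar collagen of connective tissue, had 71.5, 24.6, 19.4, 46.9 and 29.7 FPKM in DSS, against 77.1, 114 and 133 FPKM in CON (-1.66 ± 0.245, adjusted p = 0.000851). Col6a3, of the beaded filaments around cells, had 7.57, 4.38, 5.70, 8.52 and 4.37 FPKM in DSS, against 13.3, 14.6 and 18.8 FPKM in CON (-1.25 ± 0.146, adjusted p = 0.00027). In both the groups were separate, and libraries 1 and 6 were the highest in DSS. Of 46 genes of collagen processing and other matrix proteins 45 were tested, 22 fell and 0 rose (median -0.46), with 13 or 14 lower without any 1 of DSS replicate 2 and CON replicates 2, 3, 4 and 5. Serpinh1, the collagen chaperone HSP47, had 14.9, 4.5, 8.89, 16.0 and 9.82 FPKM in DSS, against 22.9, 31.1 and 40.5 FPKM in CON (-1.49 ± 0.234, adjusted p = 0.00105). Lum, the proteoglycan lumican, had 6.15, 1.25, 9.27, 4.30 and 7.37 FPKM in DSS, against 7.49, 16.6 and 19.3 FPKM in CON (-1.36 ± 0.322, adjusted p = 0.00814). Of 25 fibroblast and telocyte genes tested 10 fell and 1 rose, 2 without DSS replicate 2. Pi16 and Mfap5, markers of adventitial fibroblasts, were rare in both groups. Pi16 was at 0.155 to 0.459 FPKM in DSS against 0.869 to 2.15 FPKM in CON (-0.79 ± 0.129, adjusted p = 0.0012). Mfap5 was at 0 to 0.625 FPKM in DSS against 1.12 to 3.15 FPKM in CON (-1.05 ± 0.165, adjusted p = 0.00105). The ratio of mean FPKM was 3.94-fold lower for Pi16 and 5.21-fold lower for Mfap5. Of 24 matrix proteases and inhibitors tested 4 rose and 2 fell, 1 without DSS replicate 2. Adamts1, a protease that cleaves proteoglycans, rose, with 7.08, 3.54, 13, 3.19 and 21.8 FPKM in DSS against 1.56, 1.90 and 2.78 FPKM in CON (1.52 ± 0.329, adjusted p = 0.00518). The fibroblast markers summed above moved with this group, and their part in the result was not tested.

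Among other non-epithelial tissues, most smooth muscle and endothelial genes had log2 fold changes below 0, and enteric genes had no common direction. Values below 0 were held by 22 of 27 smooth muscle, 24 of 26 endothelial and 9 of 26 enteric neuron, glia and pacemaker genes, though few passed. Among 27 smooth muscle contractile genes 5 fell and 0 rose, with 3 without DSS replicate 2 and 8 without DSS replicate 5, a share near the 13.1% over all genes. The smooth muscle list mean was above the CON mean in DSS libraries 5 and 7 (0.25 and 0.14 log2 units) and below it in the other 3. Cnn1, calponin, had 64.6, 36.3, 163, 84.1 and 105 FPKM in DSS, against 132, 199 and 293 FPKM in CON (-1.29 ± 0.298, adjusted p = 0.00705). Of 26 enteric neuron, glia and pacemaker genes tested 2 rose and 3 fell, with a median of 0.09 (-0.02 with FPKM rescaled). The number that rose was 5 without DSS replicate 2, 1 without DSS replicate 6 or CON replicate 3 or 4, and 0 without DSS replicate 5 or 7 or CON replicate 1 or 2. Kit, the receptor of the pacemaker cells of gut muscle and of mast cells, had 34.2, 34.6, 31.7, 17.1 and 21.6 FPKM in DSS, against 38.9, 42.6 and 56.8 FPKM in CON (-0.71 ± 0.163, adjusted p = 0.00659). The neuropeptide gene Nmu, neuromedin U, was at 0.816 to 1.86 FPKM in DSS against 2.27 to 5.20 FPKM in CON (-1.05 ± 0.176, adjusted p = 0.00147). Npy4r, a receptor for pancreatic polypeptide, was at 0.444 to 2.74 FPKM in DSS against 3.26 to 6.66 FPKM in CON (-1.37 ± 0.208, adjusted p = 0.000958). Of 26 endothelial genes tested 7 fell and 1 rose, with 4 lower without any 1 of CON replicates 1, 2, 4 and 5 and 12 without CON replicate 8. Ctla2a, a cathepsin inhibitor found in endothelium and activated T cells, was the one that rose, with 63.0, 26.2, 169, 98.2 and 163 FPKM in DSS against 7.54, 12.1 and 29.2 FPKM in CON (2.58 ± 0.446, adjusted p = 0.00193).

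Car3, a gene of fat, had the largest decrease among the named genes. Of 25 white adipocyte genes 21 were tested, 9 fell and 2 rose, with 1 higher without any 1 of DSS replicates 2, 5 and 6 and CON replicates 1, 2, 4, 5, 6 and 7. Car3, the carbonic anhydrase of adipose tissue and slow muscle (chr3:14863512-14872523), had 16.0, 4.03, 3.56, 19.2 and 1.01 FPKM in DSS, against 23.6, 147 and 442 FPKM in CON (-4.13 ± 0.742, adjusted p = 0.00266). Adipoq, adiponectin, had 3.53, 1.08, 1.44, 4.69 and 0.435 FPKM in DSS, against 3.96, 26.7 and 64.9 FPKM in CON (-2.98 ± 0.606, adjusted p = 0.00471). The CON libraries also spread widely for these genes. The summed adipocyte markers given above moved with the group, and the part of the amount of fat in the result was not tested. Fabp4 had 9.48 to 46.5 FPKM in DSS against 33.4 to 298 FPKM in CON (-2.06 ± 0.532, adjusted p = 0.0137). Scd1, a desaturase also made by epithelium, was even in DSS, at 5.6, 7.26, 7.82, 7.88 and 7.13 FPKM, against 13.2, 46.6 and 178 FPKM in CON (-2.46 ± 0.584, adjusted p = 0.00964). Cyp2e1, a cytochrome P450 of liver and fat, had 5.95, 3.66, 3.86, 12.6 and 2.30 FPKM in DSS, against 9.90, 57.3 and 96.2 FPKM in CON (-2.95 ± 0.527, adjusted p = 0.00241).

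Genes of B cells and of the cells that secrete IgA were the lymphoid lists with the most decreases. Of 25 B cell and follicle genes 23 were tested, 10 fell and 0 rose (median -0.88), with 6 without DSS replicate 6 and 5 without DSS replicate 7. Without both of these replicates, a setting chosen after seeing the data, 0 fell. Cd79b, of the B cell receptor, had 1.6, 2.46, 0.949, 0.386 and 0.143 FPKM in DSS, against 1, 7.33 and 15.3 FPKM in CON (-1.75 ± 0.471, adjusted p = 0.0156). The list mean was -0.46 to -1.10 log2 units in DSS, and CON libraries 4, 7 and 8 were also low at -0.77, -0.99 and -0.56, and how many lymphoid follicles each piece of colon held is not known. Of 18 plasma cell and secretory IgA genes tested 7 fell and 1 rose, 0 without DSS replicate 7. Igj, the chain that joins IgA into dimers, had 19.0, 7.83, 4.51, 5.53 and 3.59 FPKM in DSS, against 6.56, 74.0 and 161 FPKM in CON (-3.04 ± 0.611, adjusted p = 0.00453). Mzb1, a chaperone of antibody secretion, had 0.499, 0, 0.171, 0.296 and 0.241 FPKM in DSS, against 0.151, 2.73 and 4 FPKM in CON (-1.46 ± 0.288, adjusted p = 0.0031), a ratio of mean FPKM of 11.1-fold lower. CON library 8 was the lowest CON library for both and lay within the DSS range.

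In metabolism, glycolysis and hypoxia-induced genes rose in 13 of 30 cases and fell in 1, with 8 higher without DSS replicate 7. Oxidative phosphorylation subunits had 0 of 37 higher and 3 lower, against 14.0% and 13.1% of all genes. That count of lower genes was 5 without DSS replicate 1 and 1 without any 1 of DSS replicates 5 and 7 and CON replicate 1. Both results depended on the scale. With FPKM rescaled to the same sum, 1169 of all genes were higher and 2607 lower. In that setting 8 glycolysis and hypoxia-induced genes were higher and 2 lower, and 0 subunits were higher and 12 lower. Hk2, hexokinase 2, had 46.1, 51.0, 80.2, 40.0 and 101 FPKM in DSS, against 14.2, 19.3 and 25.2 FPKM in CON (1.63 ± 0.2, adjusted p = 0.000318). Slc2a1, the glucose transporter GLUT1, had 78.5, 128, 116, 120.3 and 131 FPKM in DSS, against 51.9, 64.1 and 82.1 FPKM in CON (0.78 ± 0.147, adjusted p = 0.00241). Vegfa, the hypoxia-induced growth factor of vessels, had 23, 28.7, 37.3, 29.4 and 49.0 FPKM in DSS, against 17.1, 18.4 and 21.5 FPKM in CON (0.73 ± 0.143, adjusted p = 0.00298). Library 1 was the lowest DSS library for Slc2a1 and Vegfa. Pgd, an enzyme of the pentose phosphate pathway that regenerates NADPH, had 71, 113, 66.5, 102 and 107 FPKM in DSS, against 27.6, 35.0 and 72.9 FPKM in CON (1.23 ± 0.209, adjusted p = 0.00154). Gpx2, the glutathione peroxidase of gut epithelium, had 127, 97.9, 59.1, 113 and 109 FPKM in DSS, against 30.4, 46.5 and 81.1 FPKM in CON (1.02 ± 0.246, adjusted p = 0.00859). Of 51 tested enzymes of xenobiotic metabolism 10 fell and 2 rose, against 13.1% and 14.0% of all genes, and 4 rose without DSS replicate 5. The most abundant of those named, Cyp2c55, a colonic epoxygenase, had 651, 1178, 1154, 1549.8 and 659.8 FPKM in DSS, against 1515, 1872 and 2213 FPKM in CON (-0.91 ± 0.19, adjusted p = 0.00418). Sult1c2, a sulfotransferase, had 31.1, 29.4, 20.9, 12.4 and 15.7 FPKM in DSS, against 33.2, 51.2 and 58.8 FPKM in CON (-1.16 ± 0.207, adjusted p = 0.00188).

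Among genes of little-known function or of platelets, Gp1bb, a subunit of the von Willebrand factor receptor in platelets, had 20.7, 18.8, 11.2, 12.6 and 32.6 FPKM in DSS, against 2.76, 4.53 and 6.49 FPKM in CON (1.80 ± 0.221, adjusted p = 0.000318). Nxpe2, of a family with colonic members and no settled role, had 13.3, 15.4, 12.5, 5.36 and 3.04 FPKM in DSS, against 17.6, 62.5 and 78.9 FPKM in CON (-2.50 ± 0.383, adjusted p = 0.00111). Hoxa9, a regional transcription factor of the hindgut, had 1.54, 0.614, 1.29, 0.910 and 1.49 FPKM in DSS, against 1.57, 5.6 and 11.6 FPKM in CON (-1.47 ± 0.368, adjusted p = 0.0107). Of 23 tested posterior Hox and regional genes 4 fell and 1 rose, against 13.1% and 14.0% of all genes. The list had no common direction, with a median of 0.08 (-0.02 with FPKM rescaled) and 13 of the 23 values above 0. Without DSS replicate 2, 1 fell and 2 rose, without DSS replicate 7, 2 fell and 0 rose, without DSS replicate 6, 0 rose, and without DSS replicate 5, 2 rose. Since the sources used here do not give the stretch of colon, position along the colon and DSS cannot be told apart for Hoxa9 and the other members that passed.

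The 5 DSS libraries were not alike in what they shared with CON. Stem cell, B cell, adipocyte and plasma cell lists were below the CON mean in all 5, and antimicrobial, NF-kappaB, STAT3, glucocorticoid, clock and cholesterol lists above it in all 5. Of these lists only the stem cell, STAT3 and glucocorticoid means did not overlap between DSS and CON libraries. The antimicrobial mean, for one, was 0.654 to 1.631 log2 units in DSS and -0.459 to 1.009 in CON. Other lists differed in direction among the DSS libraries. Replication genes were up in library 1 and down in the other 4. Goblet cell genes were up by 0.38 and 0.28 log2 units in libraries 1 and 2 and down by 0.19 to 0.44 in libraries 5, 6 and 7. Interferon-induced genes were 0.86 log2 units below CON in library 5 and 0.45 above in library 7. The matrix list was lowest in library 2 at -1.18 and highest in library 7 at -0.12. Library 7 had the highest list mean for antimicrobial, NF-kappaB, STAT3 and immediate early genes, and library 5 for clock genes.

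**Figure D4:**
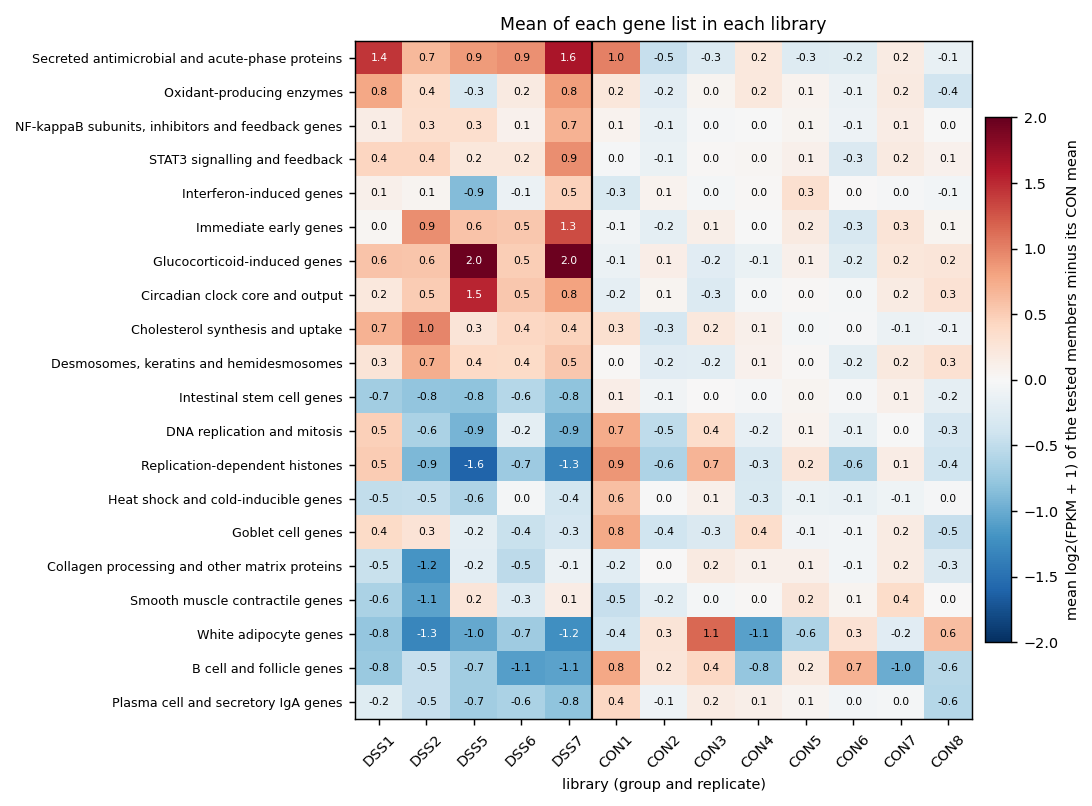
Mean log2(FPKM + 1) of the tested members of 20 gene lists in each library, minus the mean over the CON libraries, with DSS libraries to the left of the black line and CON libraries to the right; red is above and blue below the CON mean, and the colour scale ends at 2 log2 units either way. The stem cell row is blue in all 5 DSS libraries, while the replication and histone rows are red in DSS library 1 and blue in the other 4.

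The first principal component of all tested genes held 37.8% of the variance and separated the groups, with DSS libraries at 8.98 to 53.4 and CON libraries at -30.4 to -6.07. DSS libraries 5 and 7 lay furthest from CON and library 1 nearest, and the share of mapped reads was lowest in library 7. The nuclear RNAs Malat1 and Neat1 and the ribosomal precursor Rn45s rose. Of 7 tested ribosomal precursor and small structural RNAs 3 rose and 0 fell, with a median of 0.11 (0.003 with FPKM rescaled to the same sum). That list mean overlapped between the groups, at -0.143 to 0.906 log2 units in DSS and -0.391 to 0.63 in CON. The nuclear RNA Malat1 had 1704, 2518, 4043, 3402 and 4856 FPKM in DSS, against 1308, 1672 and 2290.3 FPKM in CON (0.90 ± 0.214, adjusted p = 0.0081). Neat1, the scaffold of paraspeckles, had 178, 372, 364, 582 and 537 FPKM in DSS, against 129, 153 and 215 FPKM in CON (1.18 ± 0.24, adjusted p = 0.00362). Rn45s, the ribosomal RNA precursor, had 3922, 8600.3, 3758, 14743 and 6508 FPKM in DSS, against 2233, 3153 and 5085 FPKM in CON (1.08 ± 0.296, adjusted p = 0.016), and its call and that of Malat1 were lost under quantile normalization (0.59, adjusted p = 0.0512, and 0.75, adjusted p = 0.0587). With the share of mapped reads as a covariate 26 genes passed (0.193% of those tested), 25 of them among the 3655, while 3631 of the 3655 kept their direction at a median of 84.9% of their log2 fold change. Because no DSS library reached the mapped share of any CON library, the effect of DSS and of whatever set that share cannot be told apart. Named genes that still passed in that fit included the stem cell genes Lgr5, Ascl2, Axin2 and Tnfrsf19, and Reg3b, Dmbt1, B4galt1, B3galt2 and Npy4r.

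**Figure D5:**
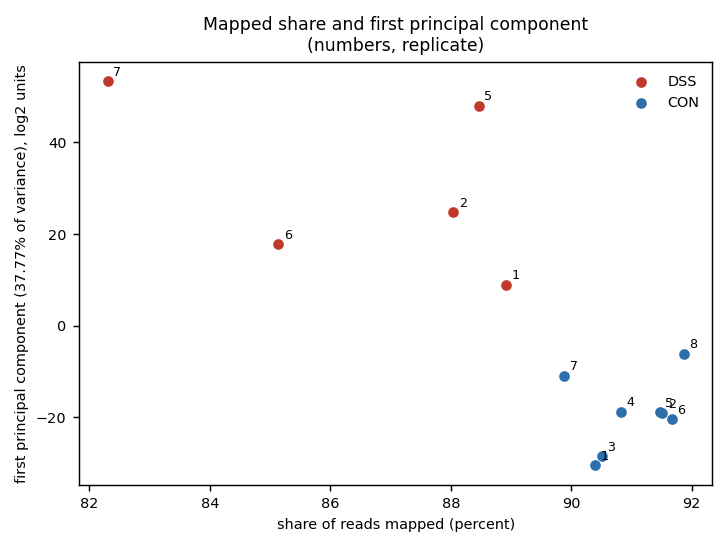
First principal component of log2(FPKM + 1), in log2 units, against the share of reads mapped, in percent, for each DSS (red) and CON (blue) library, numbered by replicate. Every DSS library lies to the left of and above every CON library.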

How the data were processed

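Colon RNA of 13 libraries was compared, 5 DSS and 8 CON, grouped by the labels. Trizol extraction and the TruSeq Stranded Total RNA kit are given in the labels' protocols. Per the submitters' processing notes the tools were bcl2fastq 2.20, Bowtie, TopHat2 2.0.13 and Cufflinks 2.2.0, with the genome build mm10. The deposited table names no unit, and its values were read as the FPKM that the authors made from aligned reads with Cufflinks, a tool named in the submitters' processing notes. The deposited read count and mapped read count of each library gave the percent mapped. They hold no value per gene, so counting error per gene is unknown.

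Genes of at least 1 FPKM in at least 4 of 13 libraries were tested on log2(FPKM + 1). The fit used limma (version 3.58.1, trend and robust settings, under R 4.3.3), with Benjamini-Hochberg adjustment over all 13483 genes and a threshold of 0.05. The procedure was tested on simulated data. Tables used Python 3.11.15, pandas 2.3.3 and numpy 2.4.6. Promoters came from RefSeq (GRCm38.p6) and positions from GENCODE M21, in which 126 of 127 named genes were matched. Genes were named as the 15 largest changes and the 10 smallest p in each direction, up to 6 members of each list by smallest p, the 10 with the largest spread among DSS libraries, and a fixed panel of colitis genes. The rule foresaw values of every library for about 30 genes. They are given for more, a choice made after the values were seen. The members named without values outside the rule (Prom1, Abcg5 and Rbm3) were also chosen then. The comparison, the 80 gene lists and the tests were chosen with earlier results of these data known. The table holds 27 gene names turned into dates, which were not used. Some genes are not reported here.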

Additional observations from a re-analysis of the deposited data

Results flagged for a closer look

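In 258 groups of values the library farthest from the rest was compared with the range of its group, on log2(FPKM + 1), and 24 groups had a gap above Dixon's 95% critical value for its number of libraries. Chance flags about 1 in 20 groups. In DSS, replicate 7 stood alone at the top for Il1b (a gap of 0.765 of the range), Nlrc4 (0.777), Tat (0.794) and Gda (0.758). Replicate 6 stood alone at the top for the stem cell genes Ascl2 (0.738) and Axin2 (0.822). Replicate 1 was alone at the top for Cx3cr1 (0.785) and at the bottom for Aim2 (0.797) and Slc2a1 (0.76), and replicate 2 at the bottom for Il22ra1 (0.752).

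In CON, replicate 8 stood alone at the bottom for Cx3cr1 (0.534), Tnfrsf19 (0.54), Sfrp1 (0.546), Igj (0.697), Mzb1 (0.633), H2-Eb1 (0.54) and Nxpe2 (0.64), 7 of the 14 flags in that group. Replicate 1 was alone at the top for the chaperones Hspa8 (0.592), Hsp90aa1 (0.747) and Hspd1 (0.538). Replicate 6 was alone at the bottom for Cebpb (0.562) and Rps18 (0.541), replicate 3 at the bottom for Ddit4 (0.58) and replicate 4 at the top for Zg16 (0.536).

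In the 9 libraries of mice that drank deep sea waters with DSS, which entered no fit described here, Reg3b was at 4362 FPKM or more, against at most 1764 FPKM in CON.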

How the results depend on the processing

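Of the 122 named genes that passed, 115 kept the call without each of the 13 libraries in turn, and Hspd1, Hspe1 and Sgk1 lost it. The other 4, S100a9, Retnlg, Dkk2 and Foxl1, were below the filter and not tested without 4 of the libraries (DSS replicates 1, 2, 5 and 7 for S100a9 and Retnlg, CON replicates for Dkk2 and Foxl1) and kept the call without the other 9. Leaving out 1 library gave 2493 to 4166 calls (1276 to 2125 higher, 1217 to 2041 lower), with 113 to 246 genes at least 2-fold higher and 145 to 260 at least 2-fold lower, the fewest calls without DSS replicate 7. Without DSS replicates 6 and 7, the lowest in mapped share, a setting chosen after seeing the data, 2079 genes passed (1049 higher, 1030 lower). In that setting 0 B cell, 0 replication and 1 ribosomal protein genes were lower, and 0 MHC class I genes were higher. With the replicate number as a block 2176 passed (1125 higher, 1051 lower), and 2042 of these were shared with the calls above. The numbers were not taken as a pairing, since same-numbered libraries had correlations of 0.335, -0.211, -0.039, -0.022 and 0.152 and only 2 of 5 DSS libraries correlated best with their own number; under the block Lcn2, Nox1 and Rn45s lost their calls and Mki67 was called. With the mapped share as covariate 26 passed (4 higher, 22 lower, 3 and 21 of them at least 2-fold). When a fold above 1.2 was required, 495 passed (275 higher, 220 lower, and 116 at least 2-fold lower). Rescaled to the same sum, 1169 genes were higher and 400 at least 2-fold lower; rescaled over protein-coding genes, chosen after seeing the data, 1020 were higher, 2748 lower and 448 at least 2-fold lower. A filter at 5 FPKM left 1163 lower genes, and a pseudocount of 0.1 put 475 at least 2-fold lower. The log2 fold change of Il1b lay between -0.18 and 0.48 when 1 library was left out and was -1.07 with the covariate and -0.17 without DSS replicates 6 and 7. Ly6a turned to -0.66 with the covariate, and Muc2 to 0.30 with the covariate and 0.063 without DSS replicates 6 and 7. None of these 3 genes passed there. The cause of these shifts was not tested. Depth per gene is unknown, which limits genes near 1 FPKM most.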
